A study of Mus musculus with 12 samples.

Results

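Overexpression of Tnrc6a in mouse embryonic stem cells was compared with Cas9 alone in the control line, over all genes and with 3 libraries a side. These 6 of 12 libraries were chosen by their labels and not by any measured value. Per the labels, the cells were of the 129S6/SvEvTac background and carried a reporter named GFP_5xT71BS with a stable FLAG-Cas9 construct linked by T2A to a Blasticidin marker, and the Cas9 control libraries carry both as well. They were grown on gelatin in 15% fetal bovine serum with LIF, a cytokine that keeps mouse stem cells undifferentiated, and total RNA was read as stranded libraries. The other 6 libraries make the same contrast, Tnrc6a against Cas9, in cells labelled Trim71-/-, and serve below as a second line that shares no library with the first. Trim71, also known as Lin-41, binds and represses mRNAs, and the series title asks how separate RNA-silencing routes meet on GW182/Tnrc6 proteins.

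The free text of the Tnrc6a control libraries does not match their titles: it names HA-AVI-Tnrc6a cells that are Ago2-/-, while the titles and the overexpression tag give control cells with Tnrc6a. The free text of the Cas9 control libraries matches their titles. Tnrc6a RNA separated the libraries as titled, and Ago2 RNA stood at 251, 267 and 322 CPM in the Tnrc6a libraries, against 306, 342 and 347 CPM in the Cas9 libraries (edgeR log2 fold change -0.25, SE 0.10, adjusted p = 0.0641). The Ago2 ranges overlapped, with Tnrc6a replicate 3 above Cas9 replicate 1. The fall was called by edgeR without that Tnrc6a library (-0.36, adjusted p = 0.000137), without that Cas9 library (-0.30, adjusted p = 0.047) and with the replicate number as a block (-0.25, adjusted p = 0.000178). A knockout need not lower its RNA, so an Ago2 deletion on the Tnrc6a side cannot be told apart from its absence here. The labels do not say whether the replicates were separate cultures, whether each line is 1 clone, or what drives the Tnrc6a transgene. P-values therefore measure the spread between libraries of 1 line, and a difference between 2 lines that arose in their derivation cannot be told apart from the effect of Tnrc6a. Below, ± is the SD over the 3 libraries of a group.

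Tnrc6 proteins are the partners through which Argonaute, loaded with a microRNA, silences an mRNA: they bind Argonaute and bring in poly(A)-binding protein and the CCR4-NOT and PAN2-PAN3 deadenylases, after which the mRNA is decapped and degraded. A microRNA chooses its targets mainly by its seed, the bases near its 5′ end that pair with a site in the target's 3′ UTR. In mouse embryonic stem cells the miR-290, miR-302, miR-17 and miR-92 families dominate, while let-7 is kept low by Lin28 and marks differentiation. Loss of microRNAs or of their cofactors has been tied in such cells to slower exit from pluripotency and to genes of the 2-cell embryo.

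The mature sequences below are those whose seed matches were counted in the 3′ UTRs. The first 5 are of families found in stem cells or their differentiated progeny, and the last 2 are known from muscle and heart. Sequences are those of RefSeq on GRCm38.p6, 5′ to 3′, with the seed (bases 2 to 8) in capitals. The seeds of miR-294 and miR-17 share 6 bases, so their sites overlap in part.
let-7a-5p (chromosome 13): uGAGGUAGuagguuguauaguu
miR-294-3p (chromosome 7): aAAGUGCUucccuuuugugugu
miR-17-5p (chromosome 14): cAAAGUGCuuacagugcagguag
miR-92a-3p (chromosome 14): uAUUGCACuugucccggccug
miR-16-5p (chromosome 14): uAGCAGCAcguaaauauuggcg
miR-206-3p (chromosome 1): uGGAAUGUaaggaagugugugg
miR-208a-3p (chromosome 14): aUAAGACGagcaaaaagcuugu

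Tnrc6a itself (chromosome 7, 123123885 to 123195296, GRCm38) gave 3319, 3436 and 3197 CPM in the Tnrc6a libraries, against 132, 134 and 131 CPM in the Cas9 libraries. CPM are counts set against library sizes that were scaled by the trimmed mean of M values, and each fold change below is Tnrc6a over Cas9 on the log2 scale. The groups lay 25.1-fold apart (edgeR log2 fold change 4.65, SE 0.04, adjusted p = 8.37e-48), with no overlap. Counts over the gene do not separate the transgene from the endogenous gene.

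The effect reached most of the transcriptome. Of 20486 genes tested by edgeR's quasi-likelihood test, 13007 (63.5%) had a Benjamini-Hochberg adjusted p under 0.05, 6230 of them higher with Tnrc6a (30.4%) and 6777 lower (33.1%). At least 2-fold higher were 2254 genes (11.0%), and at least 2-fold lower were 657 (3.21%). The 3 Tnrc6a libraries did not overlap the 3 Cas9 libraries for 67.4% of all genes tested. These shares are the background for every count below. The median log2 fold change was -0.02 over all genes and -0.09 over the 12506 genes with a mean of at least 5 CPM.

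Large rises were mostly in genes of low level without Tnrc6a. Of the 2254 genes at least 2-fold higher, 1420 (63.0%) had a mean under 1 CPM in Cas9 libraries, and 32 genes had 0 counts in all 3 Cas9 libraries. Of the 657 genes at least 2-fold lower, 161 had such a level in Cas9 libraries. No gene was at 0 counts in all 3 Tnrc6a libraries. Among the 2512 genes at 100 CPM or more with Cas9, 67.7% fell, 15.4% rose and the median was -0.24. The bins of low level are shaped by the filter, because a gene at the floor with Cas9 entered the test only through a group where it was higher.

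**Figure D1:**
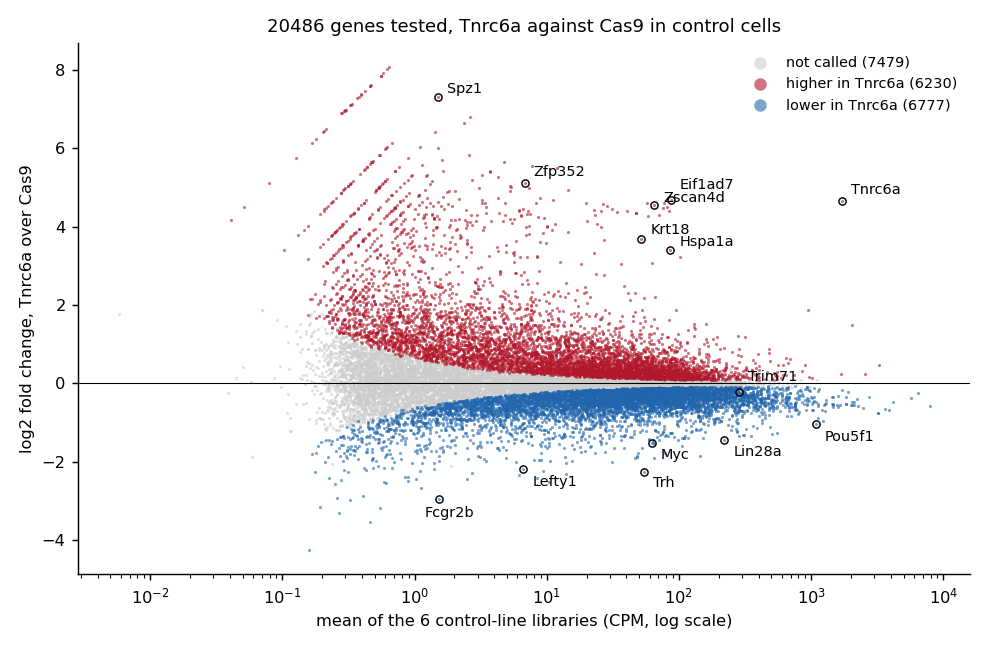
Mean level over the 6 control-line libraries (x axis, CPM, log scale) against the log2 fold change of Tnrc6a over Cas9 (y axis) for the 20486 genes tested, coloured by the edgeR call at an adjusted p of 0.05. The 6230 genes called higher reach far up at low levels, the 6777 called lower lie closer to 0, and Tnrc6a stands alone at the upper right.

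Library properties moved with the groups. Total counts were 26022893 to 28372422 in the Tnrc6a libraries and 20758151 to 27320667 in the Cas9 libraries. The top 100 genes took 14.4 to 15.0% of counts with Tnrc6a and 16.5 to 16.7% with Cas9, mitochondrial genes 2.12 to 2.59% and 3.10 to 3.46%, and the count-weighted mean gene length was 5298 to 5434 bases and 5072 to 5127 bases. Scaling factors were 1.06 to 1.08 with Tnrc6a and 0.952 to 0.953 with Cas9. Their part in the results was not tested. Many genes named below overlap another gene in the annotation, such as Platr31 with Tigar, Ddit3 with Mars, Irf7 with Phrf1, Ankrd22 with Lipm, Ctf2 with Ctf1, Fosl1 with Ccdc85b, Jun with Junos and Igf2 with Igf2os. How such reads were assigned is not given in the sources used here, so their values are uncertain to that extent. The symbol Lats2 stands for 2 gene records, and the one with the higher level is described.

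The silencing machinery around Tnrc6a moved modestly, with more falls than rises. Of 19 tested genes for Argonautes, Tnrc6 paralogs and microRNA processing, 4 rose and 10 fell (median -0.25, or -0.16 without Tnrc6a replicate 1). Falls were common at such levels: 46.6% of all genes at 20 to 100 CPM with Cas9 fell (median -0.09), and 67.7% at 100 CPM or more (median -0.24). Per kilobase of transcript, in the authors' deposited values, Tnrc6a reached 261, 270.2 and 251 RPKM with Tnrc6a and 10.4, 10.5 and 10.3 RPKM with Cas9, which placed it above every Argonaute with Tnrc6a. Ago2, the Argonaute that can also slice its target, was next at 19.9 ± 2.66 RPKM with Tnrc6a and 23.6 ± 1.60 RPKM with Cas9 (SD, n = 3). The paralogs went opposite ways: Tnrc6b rose (0.47, SE 0.07), with 3.30 ± 0.363 RPKM with Tnrc6a, against 2.39 ± 0.202 RPKM with Cas9, and Tnrc6c fell (-0.41, SE 0.05), with 5.89 ± 0.237 RPKM with Tnrc6a, against 7.81 ± 0.162 RPKM with Cas9.

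Ago1, an Argonaute without slicer activity that acts through Tnrc6, gave 43.6, 44.8 and 46.1 CPM in the Tnrc6a libraries, against 77.3, 72 and 74 CPM in the Cas9 libraries (edgeR log2 fold change -0.73, SE 0.05, adjusted p = 2.58e-16). All Tnrc6a libraries lay below all Cas9 libraries. Ago3 rose slightly (0.35, SE 0.09) and Ago4, nearly silent with Cas9, rose (1.68, SE 0.26) and had 2.3 ± 0.354 CPM with Tnrc6a and 0.716 ± 0.198 CPM with Cas9. Drosha, which cuts primary microRNA transcripts in the nucleus, fell by 0.49 (SE 0.04), and Dicer1, which makes the mature duplex, fell by 0.26 (SE 0.05). Limd1, a scaffold that links Argonaute to Tnrc6 proteins, rose (0.78, SE 0.07).

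Lin28a, the RNA-binding protein that blocks let-7 maturation, fell most among the 19 genes. Its levels were 124, 115 and 115 CPM in the Tnrc6a libraries, against 317, 316 and 332 CPM in the Cas9 libraries (edgeR log2 fold change -1.45, SE 0.04, adjusted p = 3.03e-30). All Tnrc6a libraries lay far below all Cas9 libraries. Trim71, itself a let-7 target, fell by far less, with 254, 261 and 277 CPM in the Tnrc6a libraries, against 290.1, 311 and 317 CPM in the Cas9 libraries (-0.21, SE 0.04).

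Factors that shorten and decap mRNA moved both ways. Of 32 tested genes of deadenylation and decapping, 16 rose and 13 fell (median 0.07, or 0.11 without Tnrc6a replicate 1). Close relatives parted: of the catalytic deadenylase subunits, Cnot6 fell by 0.38 and Cnot6l rose (0.49), and of the decapping complex, the enzyme Dcp2 fell by 0.57 and its partner Dcp1a rose (0.15). The risers at the top were the BTG and Tob adaptors, small proteins that bring the CCR4-NOT deadenylase to poly(A)-binding protein and slow division. Btg2 gave 189.7, 190.1 and 193 CPM in the Tnrc6a libraries, against 67.1, 63.9 and 69.9 CPM in the Cas9 libraries (edgeR log2 fold change 1.51, SE 0.04, adjusted p = 2.62e-30). Tob2 (1.16, SE 0.06) and Btg1 (0.97, SE 0.06) rose as well, and Pnrc1, which binds the decapping enzyme, rose (0.94, SE 0.05). In the other direction stood the poly(A)-binding proteins that adaptors and Tnrc6 both contact. Pabpc4 had 189 ± 2.02 CPM with Tnrc6a and 357 ± 8.05 CPM with Cas9 (edgeR log2 fold change -0.91, SE 0.04, adjusted p = 3.93e-25), and Pabpc1 had 1816 ± 37.2 CPM with Tnrc6a and 2701 ± 65.8 CPM with Cas9 (edgeR log2 fold change -0.57, SE 0.04, adjusted p = 5.26e-18). Cnot1, the scaffold of the CCR4-NOT complex, fell by 0.41 (SE 0.06).

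Nonsense-mediated decay factors changed little: 3 of 17 rose and 6 fell (median -0.05, or -0.02 without Tnrc6a replicate 2 or Tnrc6a Trim71-/- replicate 2), within -0.26 and 0.41. Upf1, the helicase of the pathway, fell by 0.11 (SE 0.04, edgeR adjusted p = 0.0147), a call lost under several settings. With edgeR its adjusted p was 0.12 with relative log expression factors, 0.0702 with upper-quartile factors and 0.0895 with a filter of 1 CPM in 6 libraries, and with DESeq2 it was 0.143. Without Cas9 replicate 1, Tnrc6a replicate 2 or Tnrc6a Trim71-/- replicate 2 edgeR gave adjusted p of 0.214, 0.204 and 0.0596. Of 16 tested snoRNA host genes, whose spliced RNAs are classic substrates of this pathway, 1 rose and 12 fell (median -0.31).

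Genes reported as let-7 targets in other work mostly fell: of 23 tested, 4 rose and 14 fell (median -0.21). The list had a sum of 3191 CPM in Cas9 libraries, so its level was high. Among all genes at 100 CPM or more with Cas9, 67.7% fell (median -0.24), and among those at 20 to 100 CPM 46.6% (median -0.09). A departure of the list from these was not tested. Myc, a transcription factor of growth, gave 29.4, 33.6 and 33.6 CPM in the Tnrc6a libraries, against 88, 91.1 and 99.7 CPM in the Cas9 libraries (edgeR log2 fold change -1.53, SE 0.05, adjusted p = 1.71e-26). Ccnd1, a G1 cyclin, gave 53, 51.5 and 55 CPM in the Tnrc6a libraries, against 144, 148 and 141 CPM in the Cas9 libraries (edgeR log2 fold change -1.44, SE 0.04, adjusted p = 8.48e-29). In both genes the groups were far apart. Mycn (-1.37, SE 0.05), the cyclin Ccnd2 (-1.42, SE 0.11), the chromatin protein Hmga1 (-1.11, SE 0.04) and the RNA-binding Igf2bp3 (-0.92, SE 0.05) fell too. Arid3a, a DNA-binding protein, rose (1.04, SE 0.08). Its annotated 3′ UTR holds 2 let-7 matches, as does that of Lin28a, and those of Hmga1 and Igf2bp3 hold 1 each. Those of Myc, Mycn, Ccnd1 and Ccnd2 hold none. Trim71, with 4 matches, fell by 0.21, and the list members Nr6a1, with 8, and Lin28b, with 4, were not called.

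Reported targets of miR-290 and miR-302 did not move one way, with 10 of 19 higher and 6 lower (median 0.18). Irf2, an interferon regulatory factor, had 1.4 ± 0.307 CPM with Tnrc6a and 0.0297 ± 0.0264 CPM with Cas9 (count ratio 50, 95% interval 13.5 to 418). The type II TGF-beta receptor Tgfbr2, which holds 3 miR-294 matches, gave 11.2, 11.6 and 10.2 CPM in the Tnrc6a libraries, against 1.88, 2.48 and 1.47 CPM in the Cas9 libraries (edgeR log2 fold change 2.53, SE 0.16, adjusted p = 3.04e-18). The cell-cycle inhibitor Cdkn1a, with 2 matches, gave 93.2, 91.3 and 88.1 CPM in the Tnrc6a libraries, against 32.1, 34.2 and 32 CPM in the Cas9 libraries (edgeR log2 fold change 1.47, SE 0.05, adjusted p = 1.52e-26). Lats2, a kinase of the Hippo pathway with 1 match, rose (1.08, SE 0.08). With 1 match each, the Nodal antagonists Lefty1 and Lefty2 fell by 2.20 (SE 0.15) and 1.97 (SE 0.11).

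Over the whole transcriptome, genes with seed matches lay slightly higher than genes without. A match was a 7-base complement of bases 2 to 8 of the microRNA in the longest annotated 3′ UTR. Among 14962 tested genes with a 3′ UTR the median log2 fold change was 0.064, and it was 0.149 for 2124 genes with a miR-17 match, 0.146 for 1130 with a miR-92a match, 0.133 for 2608 with a miR-294 match and 0.114 for 1744 with a let-7 match. The muscle and heart families gave 0.095 (1722 genes, miR-206) and 0.111 (290 genes, miR-208a), and miR-16 gave 0.082 (3870 genes).

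Among genes of at least 5 CPM the median of all 10640 genes was -0.034, and that of genes with a match ran from 0.023 (miR-16) to 0.088 (miR-17). Genes with 2 or more matches stood at 0.186 for miR-17 (251 genes), 0.118 for miR-294 (405 genes), 0.079 for let-7 (187 genes) and 0.086 for miR-206 (165 genes). UTR length moved with these values: the median 3′ UTR was 2719 bases with a miR-17 match and 1211 bases without. The 2660 genes with the shortest UTRs had a median of -0.15 and the 2658 with the longest 0.039, whatever sites they held. Within those 2658, genes with a match and genes without had medians of 0.093 and 0.012 for miR-17, 0.12 and 0.025 for miR-92a, 0.070 and 0.006 for miR-294, and 0.048 and 0.039 for let-7. For miR-206 and miR-208a the same pairs were 0.059 and 0.028, and 0.093 and 0.037. Among the 2661 genes ranked by UTR length just above the 2660 shortest, the pairs were 0.119 and -0.045 for miR-17, 0.055 and -0.034 for let-7, 0.017 and -0.033 for miR-92a and 0.014 and -0.037 for miR-294. There the order turned for miR-206 (-0.062 and -0.027) and for miR-208a (-0.045 and -0.031, with 34 genes holding a match). It did not turn among the 2660 shortest (miR-206 -0.133 and -0.149, miR-208a -0.088 and -0.149). Among the 2661 ranked just below the longest, miR-206 (0.034 and -0.0004) was close to let-7 (0.033 and -0.001). The pairs there were 0.071 and -0.012 for miR-17, and -0.0003 and 0.003 for miR-208a. For miR-16 they were 0.066 and 0.008 in the longest, and 0.003 and 0.003 just below. The quartiles of genes with a let-7 match were -0.245 and 0.337 at 5 CPM or more, and -0.212 and 0.520 at any level. For miR-17 matches at 5 CPM or more they were -0.200 and 0.368. These offsets are thus small beside the spread between genes, and no test was run on them.

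**Figure D2:**
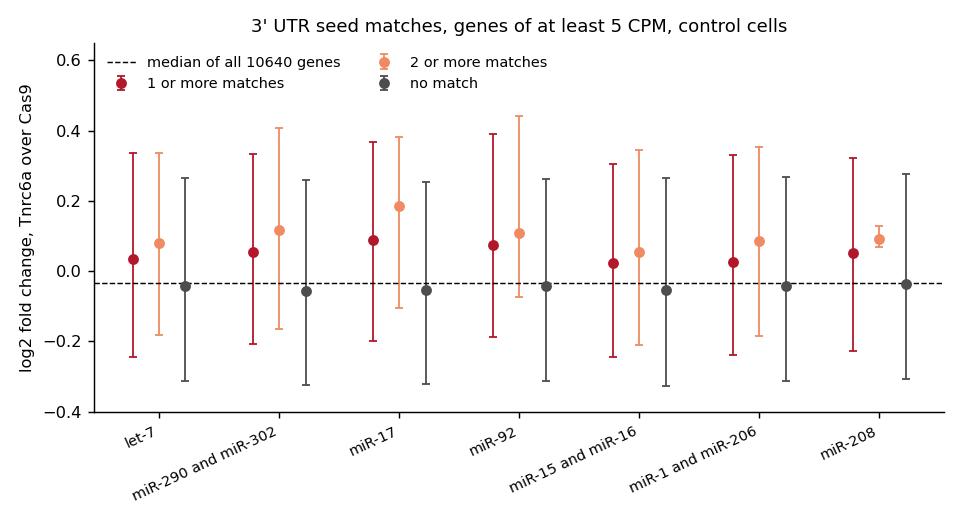
Median log2 fold change of Tnrc6a over Cas9 (y axis, bars are quartiles over genes) for genes of at least 5 CPM with 1 or more, 2 or more or no 7-base seed match to each microRNA family (x axis). The dashed line is the median of all 10640 genes with a 3′ UTR, -0.034. Genes with matches lie above those without in every family drawn, the muscle and heart families included, and only 4 genes hold 2 or more miR-208 matches.

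Of the 35 gene lists described here, that of the 2-cell-like state had the highest median. This is a rare state of stem cell cultures in which genes of the 2-cell embryo are switched on. All 29 tested genes of 30 named rose (median 4.46, range 2.02 to 5.65), as did all 19 with at least 0.5 CPM in Cas9 libraries (median 4.39), beside 28.3% higher and a median of -0.07 over the 18027 genes at that level. Their summed level was 1592 ± 46.3 CPM in Tnrc6a libraries and 72.1 ± 2.91 CPM in Cas9 libraries (SD, n = 3). In bulk RNA, more cells in such a state and more RNA per cell cannot be told apart.

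Zscan4d, a zinc finger protein of telomere maintenance and the hallmark of this state, gave 125, 128 and 122 CPM in the Tnrc6a libraries, against 5.19, 5.87 and 5.06 CPM in the Cas9 libraries (edgeR log2 fold change 4.55, SE 0.07, adjusted p = 7.04e-40). Its near copies Zscan4c, Zscan4f and Zscan4a rose 22.8-fold (4.51, SE 0.07), 22.3-fold (4.48, SE 0.06) and 19.5-fold (4.29, SE 0.07). The paralogs share so much sequence that reads may be split between them, and their single values are uncertain. The Eif1a-like genes Eif1ad7 (4.68, SE 0.07), Eif1ad8 (4.62, SE 0.08) and Eif1ad3 (4.39, SE 0.06) reached the same size of change, also as near copies. Zfp352, a retrogene of the 2-cell embryo, gave 12.4, 13.7 and 13.8 CPM in the Tnrc6a libraries, against 0.576, 0.354 and 0.193 CPM in the Cas9 libraries (edgeR log2 fold change 5.12, SE 0.20, adjusted p = 2.21e-25). Tcstv1 (4.99, SE 0.28), Tdpoz4 (5.28, SE 0.30), Tmem92 (4.02, SE 0.17) and the deubiquitinase gene Usp17lc (4.68, SE 0.15) rose alongside.

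Duxf3, a copy of the factor Dux that can switch this programme on, stayed low and rose least. It had 1.08, 0.647 and 0.697 CPM in the Tnrc6a libraries, against 0.115, 0.152 and 0.309 CPM in the Cas9 libraries (edgeR log2 fold change 2.02, SE 0.48, adjusted p = 0.000288). The core of the known Dux motif, GATTNAATC on either strand, was present in the promoter window (250 bases before to 50 after the start, RefSeq GRCm38.p6) of 2 of the 15 list genes with a window, Duxf3 and Gm4340, and in 0.307% of 27018 genes with a window.

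The Pramel genes, leucine-rich-repeat genes of early embryo and germ line that lie in clusters, moved the same way: 28 of 30 rose and 0 fell (median 3.83). Most were close to the floor with Cas9 and could enter the test mainly through a group where they were higher. Their rises are thus given as a description. Of all genes under 0.1 CPM with Cas9, 91.5% rose and 0% fell (median 3.96), and at 0.1 to under 1 CPM 33.0% rose and 5.05% fell (median 0.45). Of the 9 members with at least 0.5 CPM with Cas9, 8 rose with a median of 0.90, beside 28.3% higher and a median of -0.07 over all genes at that level. Pramel44 gave 1.67, 2.8 and 2.45 CPM in the Tnrc6a libraries, against 0.0768, 0.152 and 0 CPM in the Cas9 libraries (4.95, SE 0.47), and Pramel7, which acts against DNA methylation in naive cells, gave 2.89, 2.59 and 3.08 CPM in the Tnrc6a libraries, against 0.576, 0.455 and 0.58 CPM in the Cas9 libraries (edgeR log2 fold change 2.39, SE 0.27, adjusted p = 1.73e-10). This list was drawn up after the values were seen.

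Reported repressors of the 2-cell-like state fell more often than they rose, with 3 of 27 higher and 17 lower (median -0.16), beside 33.1% lower over all genes. The list is of high level, with a sum of 12120.5 CPM in Cas9 libraries. Among all genes at 100 CPM or more with Cas9, 67.7% fell (median -0.24), and among those at 20 to 100 CPM 46.6% (median -0.09). The share lower and the median of the list lay between these, and a departure from them was not tested. Lin28a, given above and a member of this list too, fell most. Trim28, the corepressor that silences retroviral elements, had 1631 ± 30.8 CPM with Tnrc6a and 2382 ± 82.5 CPM with Cas9 (edgeR log2 fold change -0.55, SE 0.03, adjusted p = 2.58e-18). Uhrf1 (-0.68, SE 0.04), which guides maintenance methylation, the nucleolar Ncl (-0.48, SE 0.04) and Rif1 (-0.44, SE 0.07), a heterochromatin factor, fell as well.

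Epithelial and trophoblast genes rose. All 13 keratin and junction genes were higher (median 2.12), a list drawn up after the values were seen. Krt18, a keratin of simple epithelia, gave 108, 94 and 86 CPM in the Tnrc6a libraries, against 7.99, 6.43 and 7.88 CPM in the Cas9 libraries (edgeR log2 fold change 3.68, SE 0.08, adjusted p = 1.2e-30). Krt8, its filament partner, gave 118, 113 and 106 CPM in the Tnrc6a libraries, against 14.2, 12.8 and 12.9 CPM in the Cas9 libraries (edgeR log2 fold change 3.08, SE 0.06, adjusted p = 5.71e-35). Neither gene's libraries overlapped between groups, and with Tnrc6a both stood near 100 CPM. Krt19 (3.92, SE 0.13) and Krt7 (3.91, SE 0.29) rose by similar amounts from lower levels. Elf3, an epithelial ETS factor, had 127 ± 7.52 CPM with Tnrc6a and 41.7 ± 0.881 CPM with Cas9 (1.61, SE 0.05), and Sfn, the 14-3-3 sigma protein, had 82.6 ± 1.96 CPM with Tnrc6a and 27.3 ± 0.725 CPM with Cas9 (1.59, SE 0.06). Cdh1 and Epcam, junction proteins that stem cells already express, moved by only 0.45 and 0.13, and the call of Epcam was lost without Cas9 replicate 2 (edgeR adjusted p = 0.106), Cas9 replicate 3 (0.0759) or Tnrc6a replicate 3 (0.138).

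Of 14 tested trophoblast genes, which include the 4 keratins, 12 rose and 1 fell (median 1.44). Hand1, a factor of trophoblast giant cells and mesoderm, gave 10.5, 11 and 9.19 CPM in the Tnrc6a libraries, against 0.845, 0.405 and 0.502 CPM in the Cas9 libraries (edgeR log2 fold change 4.09, SE 0.20, adjusted p = 1.69e-21). The lineage factors stayed low: Cdx2 had 1.98 ± 0.154 CPM with Tnrc6a and 0.974 ± 0.253 CPM with Cas9 (1.05, SE 0.27) and Gata3 3.4 ± 0.497 CPM with Tnrc6a and 1.37 ± 0.417 CPM with Cas9 (1.29, SE 0.21), and Tfap2a fell by 0.83.

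Primitive endoderm genes rose together, 19 of 21 tested against 2 that fell (median 1.10). Gata6, which opens this lineage, gave 33.5, 38 and 34.4 CPM in the Tnrc6a libraries, against 13.8, 13.9 and 15.8 CPM in the Cas9 libraries (edgeR log2 fold change 1.28, SE 0.08, adjusted p = 8.14e-18). Gata4, its partner, gave 50, 49.2 and 44.7 CPM in the Tnrc6a libraries, against 21, 22.4 and 20.3 CPM in the Cas9 libraries (edgeR log2 fold change 1.18, SE 0.07, adjusted p = 4.97e-18), and the SOX factor Sox17 rose (1.11, SE 0.12). Foxa2 (1.64, SE 0.19), a factor of definitive and visceral endoderm, rose from under 3 CPM. The basement membrane collagens Col4a1 (1.20, SE 0.04) and Col4a2 (1.44, SE 0.06), which these cells secrete, and the endocytic receptor Cubn (1.45, SE 0.16) followed. Col4a1 and Col4a2 overlap in the annotation, so their reads may not be fully separate.

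**Figure D3:**
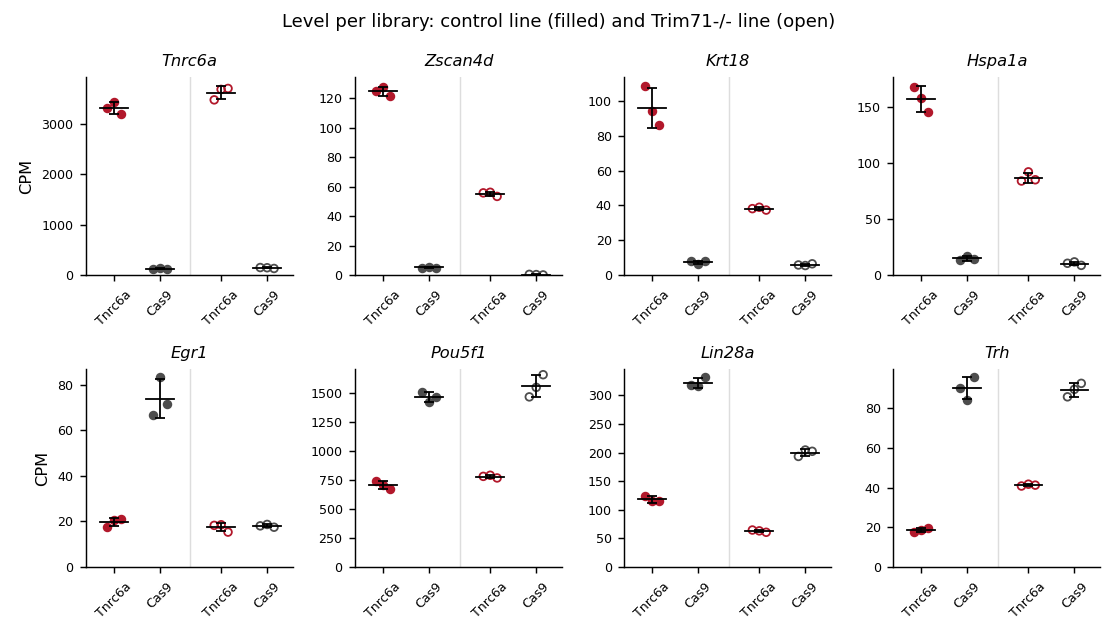
Level of 8 genes in each library (y axis, CPM), Tnrc6a left of Cas9, for the control line (filled) and the Trim71-/- line (open), with the mean and SD of 3 libraries. In the control line the 3 Tnrc6a points lie above the Cas9 points for Tnrc6a, Zscan4d, Krt18 and Hspa1a and below them for Egr1, Pou5f1, Lin28a and Trh.

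Of 36 tested interferon-stimulated genes (40 named), 21 rose and 4 fell (median 0.95, or 0.53 when only the 6 control-line libraries were fitted). Of the 22 with at least 0.5 CPM in Cas9 libraries 8 rose and 4 fell (median 0.29), beside 28.3% higher and a median of -0.07 over all genes at that level. The remaining members were near the floor with Cas9 and could enter the test mainly through a group where they were higher, so their rises are given as a description. The summed level of the list was 431 ± 5.16 CPM in Tnrc6a libraries and 420.2 ± 5.64 CPM in Cas9 libraries. Its member Sp110 (log2 fold change 5.50, levels given below) is on the 2-cell-like list too. The rise of Sp110 in CPM was larger than the difference between these sums. Isg15, a ubiquitin-like protein of the antiviral response, gave 0.765, 0.683 and 0.929 CPM in the Tnrc6a libraries, against 0 counts in all 3 Cas9 libraries. With a floor of 3 counts over the group that is at least 19-fold higher. Ifit1, which blocks capped foreign RNA, had 0.383, 0.18 and 0.332 CPM in the Tnrc6a libraries, against 0, 0.0506 and 0 CPM in the Cas9 libraries (count ratio 21.5, 95% interval 3.53 to 881). Oasl1, an antiviral regulator of translation, gave 7.86, 7.66 and 7.53 CPM in the Tnrc6a libraries, against 0.653, 0.81 and 0.618 CPM in the Cas9 libraries (edgeR log2 fold change 3.48, SE 0.17, adjusted p = 3.05e-21). Irf7, the factor that amplifies interferon genes, had 1.36 ± 0.349 CPM with Tnrc6a and 0.14 ± 0.153 CPM with Cas9 (3.38, SE 0.49), and the guanylate-binding gene Gbp2 had 4.98 ± 0.689 CPM with Tnrc6a and 0.293 ± 0.195 CPM with Cas9 (4.13, SE 0.29). Tap1, the peptide transporter for class I antigens, gave 17.7, 15.9 and 14.8 CPM in the Tnrc6a libraries, against 3.99, 3.74 and 3.48 CPM in the Cas9 libraries (edgeR log2 fold change 2.11, SE 0.11, adjusted p = 1.73e-20), though it overlaps Psmb9. Adar and Eif2ak2, which stem cells express, lay at -0.01 and 0.05 and did not pass the test, and Ifitm3 and Ifitm1, membrane proteins that restrict viral entry, fell by 1.64 and 1.33.

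The promoter of Isg15 is shown because it carries an interferon response element, in capitals, as overlapping matches to GAAANNGAAA (chr4:156200769-156201068, minus strand, RefSeq GRCm38.p6). On either strand this motif was found in 15 of the 28 list genes with a window, 11 of them among the 19 that rose, and in 3.99% of all 27018 genes with a window.
Isg15: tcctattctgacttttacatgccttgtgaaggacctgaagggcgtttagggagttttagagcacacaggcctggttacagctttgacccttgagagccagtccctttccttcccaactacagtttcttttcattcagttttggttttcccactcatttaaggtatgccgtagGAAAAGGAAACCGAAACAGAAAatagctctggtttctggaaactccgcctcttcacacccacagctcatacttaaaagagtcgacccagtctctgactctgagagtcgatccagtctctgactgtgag

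Stress genes rose in part of each programme. Of 24 heat shock and chaperone genes, a list drawn up after the values were seen, 15 rose and 6 fell (median 0.33). Hspa1a, the inducible Hsp70, gave 168, 158 and 146 CPM in the Tnrc6a libraries, against 13.6, 17.3 and 14 CPM in the Cas9 libraries (edgeR log2 fold change 3.41, SE 0.08, adjusted p = 1.73e-18). Its near copy Hspa1b, from which its reads cannot be cleanly divided, gave 189.7, 184 and 175 CPM in the Tnrc6a libraries, against 20.4, 21.2 and 17.6 CPM in the Cas9 libraries (edgeR log2 fold change 3.22, SE 0.06, adjusted p = 1.19e-29). The small heat shock proteins Hspb8 (1.73, SE 0.06) and Cryab (1.82, SE 0.12), the Hsp70 cofactor Dnajb1 (0.97, SE 0.04), the collagen chaperone Serpinh1 (1.38, SE 0.05) and the haem-degrading Hmox1 (1.15, SE 0.04) rose. Abundant constitutive chaperones moved both ways. Hsp90ab1 had 5874 ± 208 CPM with Tnrc6a and 7027 ± 117 CPM with Cas9 (-0.26, SE 0.03), and the mitochondrial Hspd1 had 1176 ± 34.8 CPM with Tnrc6a and 1728 ± 72.2 CPM with Cas9 (-0.56, SE 0.04). The cytosolic Hspa8 (0.24) and Hspa5 (0.16), the main chaperone of the endoplasmic reticulum, rose slightly.

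The promoter of Hspa1a is shown with the heat shock element GAANNTTC in capitals (chr17:34972107-34972406, minus strand, RefSeq GRCm38.p6). This motif was found in 11 of the 19 list genes with a window, 6 of them among the 11 that rose, and in 9.04% of all genes with a window.
Hspa1a: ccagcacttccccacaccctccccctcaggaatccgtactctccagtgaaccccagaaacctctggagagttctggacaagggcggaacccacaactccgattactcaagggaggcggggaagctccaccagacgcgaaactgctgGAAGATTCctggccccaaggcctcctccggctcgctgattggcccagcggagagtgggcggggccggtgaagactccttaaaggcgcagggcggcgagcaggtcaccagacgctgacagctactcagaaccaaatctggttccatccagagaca

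Targets of p53 rose in 17 of 23 genes and fell in 3 (median 0.68). Ddit4, an inhibitor of mTORC1, gave 93.5, 87.9 and 87.9 CPM in the Tnrc6a libraries, against 20.8, 19.8 and 18.8 CPM in the Cas9 libraries (edgeR log2 fold change 2.18, SE 0.06, adjusted p = 7.54e-31). Plk2, a stress kinase, gave 235, 239 and 244 CPM in the Tnrc6a libraries, against 83.5, 83.1 and 84.4 CPM in the Cas9 libraries (edgeR log2 fold change 1.52, SE 0.04, adjusted p = 1.28e-31). Beside Cdkn1a and Btg2, given above, the death receptor gene Tnfrsf10b (1.42, SE 0.06) and Mdm2 (0.79, SE 0.04), the ligase that removes p53, were higher. Of the apoptotic targets Perp (1.00), Bbc3 (0.75) and Pmaip1 (0.16) rose, and Bax fell by 0.30.

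In the integrated stress response, 12 of 21 tested genes rose and 5 fell (median 0.40). The transcription factor Atf3 gave 20.4, 19.6 and 18.3 CPM in the Tnrc6a libraries, against 5.22, 5.26 and 5.6 CPM in the Cas9 libraries (edgeR log2 fold change 1.85, SE 0.09, adjusted p = 6.26e-21), and Ddit3 (CHOP), the factor of unresolved stress, had 35.5 ± 1.55 CPM with Tnrc6a and 10.6 ± 1.99 CPM with Cas9 (1.73, SE 0.09). Ppp1r15a (1.18, SE 0.05), which restores translation, and the pseudokinase gene Trib3 (1.15, SE 0.07) rose. Atf4, the RNA of the central factor, rose (0.10, SE 0.04), a call lost without Cas9 replicate 2 (edgeR adjusted p = 0.0703) or 3 (0.162). Its serine synthesis target Phgdh fell by 0.60 (SE 0.06).

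Pluripotency genes fell. All 10 markers of pluripotent stem cells were lower with Tnrc6a (median -0.82), while remaining among the expressed genes of the cells. Pou5f1 (Oct4), the core factor, gave 745, 710.5 and 673 CPM in the Tnrc6a libraries, against 1508, 1425 and 1468 CPM in the Cas9 libraries (edgeR log2 fold change -1.05, SE 0.04, adjusted p = 4.03e-25). Every Tnrc6a library was at about the same level, below all Cas9 libraries. Sox2, its partner, gave 301, 311 and 289 CPM in the Tnrc6a libraries, against 461, 468 and 460.4 CPM in the Cas9 libraries (edgeR log2 fold change -0.63, SE 0.04, adjusted p = 6.11e-19). Nanog fell least, with 487, 500.0 and 508 CPM in the Tnrc6a libraries, against 576, 585 and 575 CPM in the Cas9 libraries (edgeR log2 fold change -0.22, SE 0.03, adjusted p = 5.45e-07). Tdgf1, the Nodal coreceptor Cripto, had 291 ± 7.32 CPM with Tnrc6a and 720.0 ± 1.24 CPM with Cas9 (edgeR log2 fold change -1.31, SE 0.03, adjusted p = 2.88e-31), and Utf1, a chromatin factor of stem cells, had 182 ± 8.04 CPM with Tnrc6a and 368 ± 19.5 CPM with Cas9 (-1.02, SE 0.04). Fibroblast markers, for feeder cells that the labels do not mention, were tested for 8 of 13 named genes, with 4 higher and 1 lower (median 0.47, or 0.30 without Tnrc6a replicate 3).

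Of 26 naive pluripotency genes 4 rose and 21 fell (median -0.46). Gbx2, a homeobox factor downstream of LIF, gave 23.4, 28.8 and 29.7 CPM in the Tnrc6a libraries, against 103, 97.9 and 106 CPM in the Cas9 libraries (edgeR log2 fold change -1.91, SE 0.06, adjusted p = 2.27e-27). The kinase cofactor Tcl1 (-1.32, SE 0.07), the nuclear receptors Nr0b1 (-1.17, SE 0.04) and Esrrb (-0.70, SE 0.03), threonine dehydrogenase Tdh (-1.09, SE 0.04), the RNA-binding Dppa5a (-0.95, SE 0.04) and Zfp42 (-0.63, SE 0.03) fell. Against this direction, Fbxo15 gave 248, 255 and 259.7 CPM in the Tnrc6a libraries, against 131, 127 and 125 CPM in the Cas9 libraries (edgeR log2 fold change 0.99, SE 0.04, adjusted p = 3.92e-25), and Dppa3 (Stella), a maternal factor also tied to the 2-cell-like state, had 1.22 ± 0.281 CPM with Tnrc6a and 0.315 ± 0.162 CPM with Cas9 (1.92, SE 0.38).

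Genes of the next, formative stage fell too. Of 13 tested formative and primed genes 0 rose and 8 fell (median -0.78). Otx2, the factor of the formative state, gave 15.8, 14.5 and 15.1 CPM in the Tnrc6a libraries, against 30.1, 33.1 and 31.4 CPM in the Cas9 libraries (edgeR log2 fold change -1.06, SE 0.08, adjusted p = 7.39e-16), and Zic2 (-1.17, SE 0.11), Zic5 (-1.40, SE 0.10) and Fgf15 (-1.50, SE 0.17) were also lower. Among DNA methyltransferases and Tet enzymes 7 of 9 fell and 1 rose: the de novo enzyme Dnmt3a had 116 ± 1.94 CPM with Tnrc6a and 206 ± 1.8 CPM with Cas9 (-0.82, SE 0.04), the demethylating Tet2 101 ± 6.4 CPM with Tnrc6a and 202 ± 7.16 CPM with Cas9 (-1.01, SE 0.04), and Tet3, the form of oocyte and zygote, rose (1.12, SE 0.10).

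Platr genes, long noncoding RNAs named for their link to pluripotency, fell in 15 of 23 cases and rose in 1 (median -0.84), in a list drawn up after the values were seen. Platr6 gave 0.383, 0.288 and 0.232 CPM in the Tnrc6a libraries, against 2.23, 1.52 and 2.01 CPM in the Cas9 libraries (edgeR log2 fold change -2.67, SE 0.30, adjusted p = 1.8e-10). The riser, Platr31 (4.51), overlaps Tigar and had 1.06 ± 0.218 CPM with Tnrc6a and 0.0425 ± 0.00697 CPM with Cas9.

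Signalling readouts moved in opposite directions within pathways. Of 22 genes of FGF signalling and ERK response 8 rose and 14 fell (median -0.29). Egr1, an immediate-early factor, gave 17.7, 20.6 and 21 CPM in the Tnrc6a libraries, against 66.6, 83.5 and 71.5 CPM in the Cas9 libraries (edgeR log2 fold change -1.90, SE 0.08, adjusted p = 2.71e-20). The feedback inhibitors Spry4 (-1.07, SE 0.04) and Dusp6 (-1.04, SE 0.04) and the ETS factor Etv4 (-1.04, SE 0.04), standard readouts of ERK activity, fell by about the same amount. The AP-1 genes Jun, Fosl1 and Fos rose, as did Dusp4, Ier3 and Phlda1 of the same list. Jun gave 68.2, 65.6 and 62.4 CPM in the Tnrc6a libraries, against 11.9, 12.7 and 10.7 CPM in the Cas9 libraries (edgeR log2 fold change 2.48, SE 0.07, adjusted p = 2.33e-30), and Fosl1 gave 12.5, 11.5 and 12.3 CPM in the Tnrc6a libraries, against 1.77, 2.58 and 1.62 CPM in the Cas9 libraries (edgeR log2 fold change 2.63, SE 0.14, adjusted p = 2.91e-20).

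In the Nodal, BMP and TGF-beta pathway 13 of 22 rose and 9 fell (median 0.13). The ligand gene Nodal rose (0.58, SE 0.05), while its antagonist and target Lefty1 gave 2.23, 2.8 and 2.16 CPM in the Tnrc6a libraries, against 10.6, 9.66 and 12.5 CPM in the Cas9 libraries (edgeR log2 fold change -2.20, SE 0.15, adjusted p = 8.81e-17). Inhbb, the activin B subunit, gave 59.8, 61.5 and 64.5 CPM in the Tnrc6a libraries, against 221, 223 and 229.8 CPM in the Cas9 libraries (edgeR log2 fold change -1.86, SE 0.04, adjusted p = 6.62e-35), and the ligand Gdf3, counted outside this list, had 32.8 ± 0.495 CPM with Tnrc6a and 95.8 ± 1.84 CPM with Cas9 (-1.55, SE 0.05). The receptor gene Tgfbr2, given above, rose.

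Wnt genes rose in 16 of 25 tested cases and fell in 7 (median 0.48). The ligand Wnt7b gave 12.8, 13.2 and 10.9 CPM in the Tnrc6a libraries, against 1.96, 1.62 and 2.7 CPM in the Cas9 libraries (edgeR log2 fold change 2.53, SE 0.15, adjusted p = 7.04e-19), and Sp5, Wnt3a and Wnt3 rose by 1.82, 1.77 and 1.57. Axin2, the standard target gene, rose by 0.67, and the target T (brachyury) fell by 1.10. The call of Wnt3a was lost without Cas9 replicate 1 (edgeR adjusted p = 0.0691), and that of T without Cas9 replicate 1 (0.0828), Tnrc6a replicate 1 (0.0756) or Tnrc6a replicate 2 (0.054). Among mRNAs reported as bound by TRIM71, 9 in all, 4 were higher and 2 lower (median 0.10, with 0.18 without Tnrc6a replicate 1 and 0.05 without Tnrc6a replicate 3), the falls being Egr1 and Inhbb.

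Genes of translation and energy supply fell evenly. All 46 cytosolic ribosomal protein genes were lower (median -0.53, range -0.74 to -0.31), with a summed level of 23934 ± 765 CPM in Tnrc6a libraries and 34286 ± 460.1 CPM in Cas9 libraries (SD, n = 3). The lowest value was that of Rpl41, which gave 326, 312 and 302 CPM in the Tnrc6a libraries, against 543, 549 and 482 CPM in the Cas9 libraries (edgeR log2 fold change -0.74, SE 0.06, adjusted p = 1.52e-09). Of 28 nuclear genes of the respiratory chain 27 fell and 0 rose (median -0.38), led by Uqcrq of complex III (-0.70, SE 0.05). Transcript length moved with these values. Among protein-coding genes of at least 5 CPM the 2146 shortest had a median of -0.17, or -0.13 without ribosomal, mitochondrial ribosomal and respiratory genes, and the 2146 longest 0.028. Processed pseudogenes, which resemble such short abundant mRNAs, had a median of -0.39 over 3185 genes, 49.3% of them lower. The part of length or library composition in these falls was not tested.

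Of 25 genes of glycolysis and hypoxia 7 rose and 12 fell (median -0.19). Pdk1, which diverts pyruvate from mitochondria, gave 82.7, 91.4 and 88.3 CPM in the Tnrc6a libraries, against 197, 197 and 202 CPM in the Cas9 libraries (edgeR log2 fold change -1.18, SE 0.04, adjusted p = 7.56e-27), and lactate dehydrogenase Ldha had 373 ± 10.9 CPM with Tnrc6a and 593 ± 9.68 CPM with Cas9 (-0.67, SE 0.04). The angiogenic factor Vegfa had 47 ± 2.06 CPM with Tnrc6a and 24.5 ± 2.43 CPM with Cas9 (0.94, SE 0.07). Cholesterol synthesis fell in 18 of 23 genes and rose in 1 (median -0.32), with the isomerase Idi1 at 28.4 ± 1.78 CPM with Tnrc6a and 50.8 ± 0.963 CPM with Cas9 (-0.84, SE 0.06).

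Germ cell and meiosis genes rose in 20 of 25 tested cases and fell in 2 (median 0.91). Taf7l, a germ-line TFIID subunit, gave 33, 34.7 and 32.2 CPM in the Tnrc6a libraries, against 6.11, 6.27 and 7.46 CPM in the Cas9 libraries (edgeR log2 fold change 2.33, SE 0.09, adjusted p = 8.25e-26), and the helicase gene Ddx4 (Vasa) had 92 ± 1.45 CPM with Tnrc6a and 37.7 ± 0.3 CPM with Cas9 (1.29, SE 0.05). Mael, of the piRNA pathway, rose (0.92, SE 0.08). Imprinted genes split, 8 of 25 higher and 11 lower (median -0.12, or -0.20 without Cas9 replicate 1 or 3): the growth factor Igf2 gave 26.3, 27.8 and 26.6 CPM in the Tnrc6a libraries, against 7.11, 7.84 and 8.27 CPM in the Cas9 libraries (edgeR log2 fold change 1.80, SE 0.10, adjusted p = 2.07e-20), and the growth restraint gene Grb10 gave 169, 179.9 and 189 CPM in the Tnrc6a libraries, against 433, 455 and 445 CPM in the Cas9 libraries (edgeR log2 fold change -1.31, SE 0.04, adjusted p = 1.45e-28).

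Of 13 tested neural genes 4 rose and 5 fell (median 0.14). That median was 0.01 without Cas9 replicate 1, 0.09 without Cas9 replicate 2 or Tnrc6a replicate 3, and 0.23 without Tnrc6a replicate 2. Sox1, an early neural SOX factor, gave 1.39, 1.65 and 2.99 CPM in the Tnrc6a libraries, against 9.49, 10.6 and 10.7 CPM in the Cas9 libraries (edgeR log2 fold change -2.34, SE 0.16, adjusted p = 4.45e-15), while the filament gene Nes had 38.5 ± 1.78 CPM with Tnrc6a and 12.3 ± 0.904 CPM with Cas9 (1.64, SE 0.07). Of 13 tested streak and mesoderm genes 6 rose and 5 fell (median -0.23), and that median was 0.11 without Cas9 replicate 1, -0.12 without Tnrc6a replicate 1 and -0.06 without Tnrc6a replicate 3. Under a filter of at least 1 CPM in 6 libraries it was 0.48. Of 21 tested replication-dependent histone genes, whose mRNAs mostly lack poly(A), 7 rose and 1 fell (median 0.48, or 0.25 without Tnrc6a replicate 2).

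**Figure D4:**
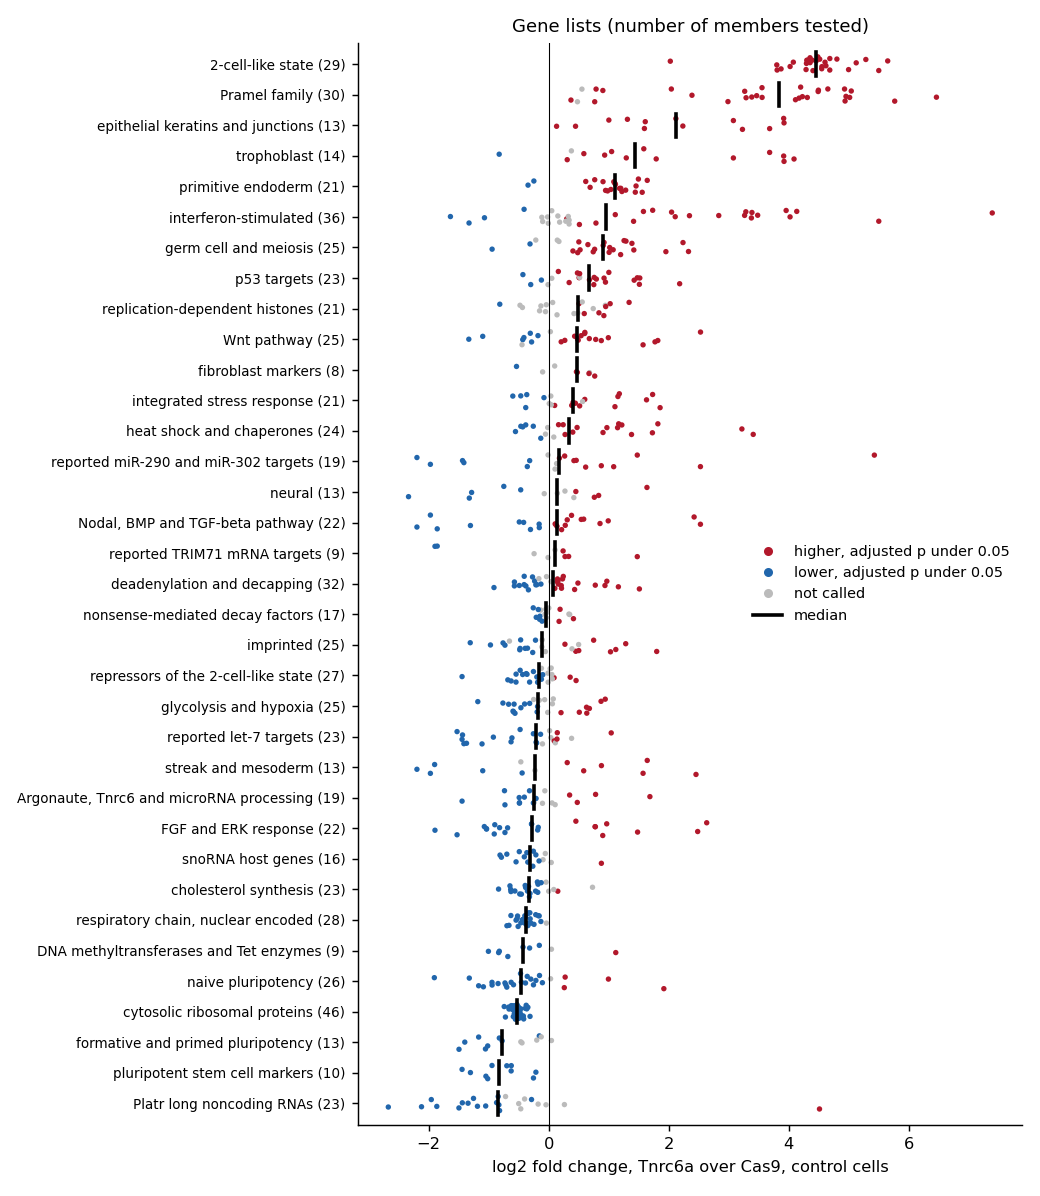
Log2 fold change of Tnrc6a over Cas9 in control cells (x axis) for each tested member of the 35 gene lists (y axis, number of members in brackets), ordered by median (black bar) and coloured by the edgeR call. The 2-cell-like list stands highest with a median of 4.46, and the Platr, pluripotency marker and formative lists stand lowest, between -0.84 and -0.78.

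The largest rises among genes with a mean of at least 1 CPM included members of no list. Spz1, a testis zipper factor, had 3.3, 2.62 and 3.05 CPM in the Tnrc6a libraries, against 0, 0.0506 and 0 CPM in the Cas9 libraries (count ratio 215, 95% interval 38.2 to 8521). Stmn4 (count ratio 77.3, 95% interval 21.1 to 643), a neuronal stathmin, and Vmn1r227 (count ratio 52.9, 95% interval 17.8 to 259), a vomeronasal receptor gene, rested on 2 and 3 counts with Cas9. Sp110, a nuclear body protein induced by interferon, gave 24.7, 23.9 and 22 CPM in the Tnrc6a libraries, against 0.576, 0.304 and 0.618 CPM in the Cas9 libraries (edgeR log2 fold change 5.50, SE 0.16, adjusted p = 6.21e-30), though its exons overlap those of G530012D18Rik. Unlike Spz1, Sp110 is a list member, counted in both the 2-cell-like and the interferon-stimulated lists. Cpb2, a carboxypeptidase of the blood, gave 3.17, 3.38 and 3.02 CPM in the Tnrc6a libraries, against 0.0768, 0.0506 and 0.0773 CPM in the Cas9 libraries (edgeR log2 fold change 5.42, SE 0.38). Gbp2b (5.41, SE 0.27), a guanylate-binding protein, the cytokine gene Ctf2 (5.32, SE 0.47) and the tachykinin receptor gene Tacr3 (5.17, SE 0.45) completed the set with Tdpoz4, Zfp352, Tcstv1 and Pramel44.

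The largest falls were smaller than the largest rises. Fcgr2b, an inhibitory Fc receptor, gave 0.348, 0.359 and 0.332 CPM in the Tnrc6a libraries, against 2.27, 2.53 and 3.32 CPM in the Cas9 libraries (edgeR log2 fold change -2.95, SE 0.29, adjusted p = 7.29e-12). Trh, the thyrotropin-releasing hormone, gave 17.7, 18.8 and 19.7 CPM in the Tnrc6a libraries, against 90.3, 84.3 and 95.7 CPM in the Cas9 libraries (edgeR log2 fold change -2.27, SE 0.06, adjusted p = 2.57e-32). It was the largest fall above a mean of 50 CPM, where Gbx2, Inhbb, the cationic amino acid transporter gene Slc7a3 (-1.78, SE 0.05), Adam23 (-1.60, SE 0.04), Gdf3, Myc and H2-M5 (-1.46, SE 0.05) followed. Fgf17, an FGF ligand, had 2.44, 3.27 and 3.48 CPM in the Tnrc6a libraries, against 16.1, 18.5 and 18.7 CPM in the Cas9 libraries (edgeR log2 fold change -2.53, SE 0.11, adjusted p = 5.99e-23). Nlrp4a (-2.45, SE 0.32), Insyn2b (-2.44, SE 0.22), Myo1f (-2.32, SE 0.10), Nsg2 (-2.29, SE 0.20), Foxr2 (-2.23, SE 0.31) and Ms4a14 (-2.20, SE 0.31) completed the 12 with Platr6, Sox1 and Lefty1.

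The same contrast in the Trim71-/- line, measured in 6 other libraries, overlapped it in most calls. Per its free text, the Cas9 Trim71-/- libraries came from HA-AVI-Tnrc6a cells and the Tnrc6a Trim71-/- libraries from HA-AVI-Tnrc6a, Upf1-/- cells, again unlike the titles. Tnrc6a RNA followed the titles there, with 3477, 3684 and 3704 CPM in the Tnrc6a Trim71-/- libraries and 152, 148 and 133 CPM in the Cas9 Trim71-/- libraries. Trim71 RNA was present, with 237, 233 and 251 CPM in the Tnrc6a Trim71-/- libraries and 264, 270.1 and 291 CPM in the Cas9 Trim71-/- libraries, so it does not check the Trim71-/- label. Upf1 RNA was at 232, 229 and 228 CPM in the Tnrc6a Trim71-/- libraries and 249, 234 and 243 CPM in the Cas9 Trim71-/- libraries. In that line 12884 genes were called (62.9%), 6562 higher (32.0%) and 6322 lower (30.9%). Of the 6230 genes higher in control cells 5216 (83.7%) were higher there too, and 79.5% of the genes higher there were higher in control cells. Of the 6777 lower genes 5456 (80.5%) were lower in both, or 86.3% of those lower in Trim71-/- cells. Only 26 and 56 genes were called in opposite directions. Across the 20486 genes Pearson's r of the log2 fold changes was 0.879, as a description, since genes are not independent replicates. Tnrc6a changed by the same amount in both lines (4.65 in each).

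The difference between the 2 effects was tested as an interaction, control minus Trim71-/- cells. It was called for 1419 genes (6.93%), 461 positive (2.25%) and 958 negative (4.68%). This split depended on the scaling: with relative log expression factors 1381 genes were called, 613 positive and 768 negative, so the positive share was 44.4% instead of 32.5%. Genes of the 2-cell-like state were called with a smaller log2 fold change in control cells in 15 of 29 cases and with a larger one in 0. Zscan4d had 55.9, 56.3 and 53.5 CPM in the Tnrc6a Trim71-/- libraries and 0.57, 0.414 and 0.184 CPM in the Cas9 Trim71-/- libraries (interaction -2.51, SE 0.21, edgeR adjusted p = 1.43e-11). In the Cas9 Trim71-/- libraries it was thus below its Cas9 control level, and the Tnrc6a Trim71-/- level was below that of Tnrc6a control cells, although the fold was larger. Targets of p53 rose less in control cells in 14 of 23 cases and more in 0, Plk2 (interaction -0.43, SE 0.06, edgeR adjusted p = 4.56e-07) and Cdkn1a (interaction -0.32, SE 0.07, edgeR adjusted p = 0.00344) among them.

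Naive pluripotency genes were called in 15 cases with a more negative value in control cells and in 5 with a more positive one, of 26. Esrrb fell by 0.70 in control and by 0.20 in Trim71-/- cells (interaction -0.50, SE 0.05, edgeR adjusted p = 2.58e-10). Egr1 differed most of the genes of the ERK response (interaction -1.84, SE 0.12, edgeR adjusted p = 9.58e-13). It had 18.3, 18.6 and 15.3 CPM in the Tnrc6a Trim71-/- libraries and 18.1, 18.7 and 17.5 CPM in the Cas9 Trim71-/- libraries, and these ranges overlapped. Inhbb (interaction -0.98, SE 0.05, edgeR adjusted p = 1.8e-17) and Trh (interaction -1.16, SE 0.08, edgeR adjusted p = 9.46e-15) fell more in control cells as well. In the other direction, Krt8 (interaction 1.21, SE 0.09, edgeR adjusted p = 9.58e-13), Igf2 (interaction 1.25, SE 0.15, edgeR adjusted p = 6.92e-08) and Rhox5 (interaction 1.39, SE 0.13, edgeR adjusted p = 7.42e-11), an X-linked homeobox gene, rose more in control cells, Rhox5 at -0.38 in Trim71-/- cells.

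The rule of size took called interactions of genes with a mean of at least 1 CPM over the 12 libraries. It also needed the 3 Tnrc6a and 3 Cas9 libraries not to overlap in either line. Sp5 (1.52) did not pass this rule. By it, the largest positive interactions were Pramel7 (1.56), Rhox5, H2bc27 (1.35), Tincr (1.31) and Sox7 (1.29), and the largest negative ones Ankrd22 (-4.45), Inpp4b (-3.81), Spopfm1 (-3.03), Zscan4d and the netrin receptor gene Dcc (-2.35). Apart from Zscan4d these negative ones were under 0.4 CPM in the Cas9 control group. Several of these calls were lost with 1 library left out (edgeR adjusted p up to 0.173). That held for H2bc27 without Cas9 replicate 2, Tnrc6a replicate 2 or Tnrc6a Trim71-/- replicate 2, and for Ankrd22 without Cas9 replicate 1 or any Cas9 Trim71-/- library. Tincr lost it without Tnrc6a replicate 1 or 3, Cas9 replicate 2 or 3, Tnrc6a Trim71-/- replicate 1 or Cas9 Trim71-/- replicate 1, and Spopfm1 without replicate 2 of any group or Cas9 Trim71-/- replicate 1. The call of Dcc was kept only without Tnrc6a Trim71-/- replicate 3.

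**Figure D5:**
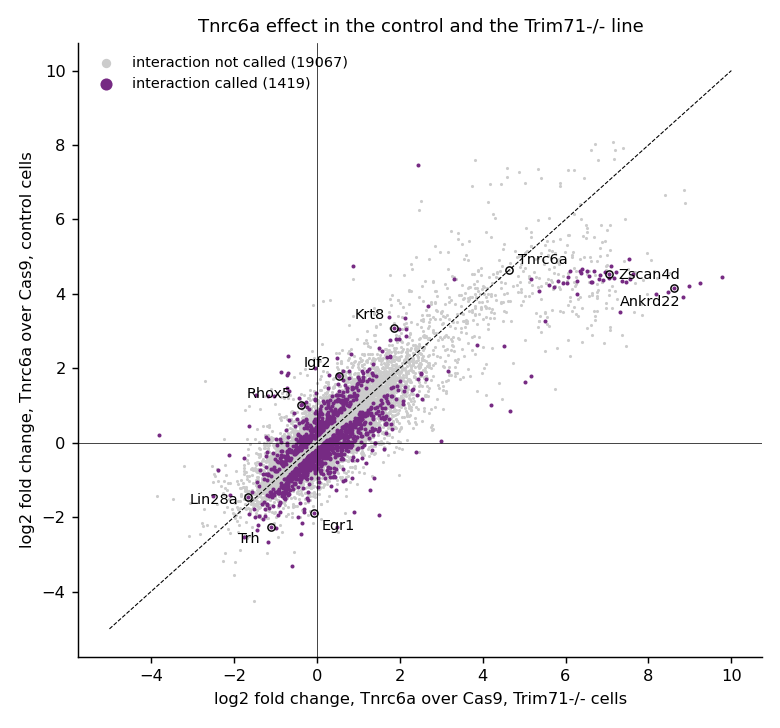
Log2 fold change of Tnrc6a over Cas9 in control cells (y axis) against that in Trim71-/- cells (x axis) for 20486 genes, with the line of equal change dashed and the 1419 genes with a called interaction in purple. Most genes lie along the line (r = 0.879). Zscan4d and Ankrd22 lie to its right, and Krt8, Igf2 and Rhox5 to its left.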

How the data were processed

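The authors deposited 1 table of raw read counts per gene for 12 libraries, 3 in each of 4 groups, with totals of 20758151 to 31552915. Per the labels, Norgen kits and stranded TruSeq total RNA libraries were used, and per the submitters' processing notes bcl2fastq 2.20, STAR 2.7.3a and the mm10 (GRCm38) build. The sources used here do not name the counting tool, its strand setting or its annotation. The lowest sum of a listed gene over the libraries is 46 counts, so genes below that were not analysed here. Of 20529 listed IDs, 17158 took their symbol from the deposited table and 3357 from the annotation.

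Counts were tested with edgeR 4.0.16 (filterByExpr, trimmed mean of M values, robust quasi-likelihood fit with 1 mean per group over all 12 libraries, limma 3.58.1, R 4.3.3), with Benjamini-Hochberg adjustment over 20486 genes and a threshold of 0.05. Figures used Python 3.11.15 and matplotlib 3.10.9. Precision is set by 3 libraries a group, and intervals of count ratios (95%, exact binomial) cover counting error only. RPKM are the authors' deposited values, per the file headers, and were used only for levels between genes. Alternatives were other scaling factors, other filters, the compared groups alone, DESeq2 1.42.0, a replicate block and leaving out each library.

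Members and lists were chosen with earlier results of these data known, and 4 of 35 lists (keratins and junctions, Pramel, heat shock, Platr) were added after values were seen. Genes were named from the label genes, the 12 largest rises and falls at 1 CPM or more, the 8 each way at 50 CPM or more, the 5 largest interactions each way, and up to 6 called and 3 highest members per list. Picks by size were of called genes whose 3 Tnrc6a libraries did not overlap the 3 Cas9 libraries, in both lines for an interaction. Other named genes (such as Ago3 and Cdx2) were picked from the lists for their role after values were seen. Placeholder names were skipped, and a few genes are not reported here.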

Additional observations from a re-analysis of the deposited data

Results flagged for a closer look

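For the genes below, the change with Tnrc6a differed between the control and the Trim71-/- line by edgeR's test of the interaction (adjusted p under 0.05). Each value is the log2 fold change in control cells minus that in Trim71-/- cells. Background calls were 2.25% positive and 4.68% negative, and the split between them depends on the scaling. No cause was tested.

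In the control line the 2-cell-like list summed to 1592 ± 46.3 CPM in Tnrc6a libraries and 72.1 ± 2.91 CPM in Cas9 libraries. In the Trim71-/- line it summed to 610 ± 14.6 and 7.21 ± 0.839 CPM, lower levels with a larger fold. Genes of this state rose in both lines, with a smaller log2 fold change in control cells: Zscan4d (-2.51), Zscan4c (-2.32), Zscan4f (-2.08), Zscan4a (-1.65), Eif1ad7 (-1.72), Eif1ad8 (-1.50) and Eif1ad3 (-0.78). The low-level genes Ankrd22 (-4.45), Inpp4b (-3.81), Spopfm1 (-3.03) and Dcc (-2.35) did so too. So did Fosl1 (-1.23), Gata6 (-1.14), Hspb8 (-0.73), Atf3 (-0.67), Lats2 (-0.65), Pnrc1 (-0.63), Plk2 (-0.43), Btg2 (-0.33), Cdkn1a (-0.32), Mdm2 (-0.32), Vegfa (-0.37), Nodal (-0.40), Pmaip1 (-0.82), Epcam (-0.38), Bbc3 (-0.32) and Hspa5 (-0.25).

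Egr1 fell by 1.90 in control cells and lay at -0.05 in Trim71-/- cells (-1.84). Other genes that fell in control cells and had a difference below 0 were Nlrp4a (-2.07), Platr6 (-1.50), Nsg2 (-1.31), Fgf15 (-1.26), Trh (-1.16), Inhbb (-0.98), Sox1 (-0.90), Lefty1 (-0.78), Lefty2 (-0.57), Fgf17 (-0.78), Dnmt3a (-0.58) and Spry4 (-0.56). Of the pluripotency genes, this held for Esrrb (-0.50), Tdh (-0.40), Tcl1 (-0.38), Zfp42 (-0.37), Tdgf1 (-0.36), Sox2 (-0.36), Nr0b1 (-0.30), Gbx2 (-0.28) and Nanog (-0.27). It also held for Grb10 (-0.50), H2-M5 (-0.38), Tnrc6c (-0.34), Adam23 (-0.32), Idi1 (-0.31), Mycn (-0.30), Pabpc1 (-0.25), Ifitm3 (-0.32) and Dcp2 (-0.29).

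Differences above 0 were those of Pramel7 (1.56), Rhox5 (1.39), H2bc27 (1.35), Tincr (1.31), Sox7 (1.29), Sp5 (1.52), Axin2 (0.64), Igf2 (1.25), Krt8 (1.21), Krt18 (1.00), Ddx4 (0.31), Limd1 (0.30) and Fbxo15 (0.21), and those of Ccnd2 (0.68) and Lin28a (0.22), which fell in both lines and by less in control cells.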

How the results depend on the processing

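The gene-level fold changes named above kept their direction in control cells under every setting tried except Adar, at -0.01 and not called, which lay at up to 0.04. Of those refitted with 1 library left out, 2252 calls stayed on their side of the threshold, 14 were lost and 2 were gained, and with other settings the counts were 1491, 5 and 1. The calls lost were those of Upf1, Atf4, H2bc27, T, Wnt3a and Epcam. Interactions of named genes were less stable: 73 calls were lost and 29 gained with 1 library left out, and 9 and 16 with other settings. Those lost under at least 1 setting were of Ankrd22, Dcc, Fbxo15, Gbx2, H2bc27, Idi1, Ifitm3, Lefty1, Lefty2, Limd1, Lin28a, Sox1, Sp5, Spopfm1, Tcl1, Tincr and Vegfa, with edgeR adjusted p of up to 0.321 (Gbx2 without Tnrc6a control replicate 1). Ago2, not called above, was called without Cas9 control replicate 1 (edgeR adjusted p = 0.047), without Tnrc6a control replicate 3 (0.000137) and with the replicate block (0.000178). Genes changed numbered 12094 to 13212 with 1 library left out, and interactions 1059 to 1403. Under the filter of at least 1 CPM in 6 libraries, 1724 genes changed at least 2-fold, 1312 higher and 412 lower, against 2911, 2254 and 657. Equal replicate numbers did not pair the libraries: their deviations correlated at 0.016 to 0.021 in the control line and -0.004 to 0.010 in the other, and a fit with the number as a replicate block called 12901 genes changed and 1335 interactions. With relative log expression factors 52.3% of the calls in control cells were higher, against 47.9%.

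Reversed in sign were the medians of all genes with a 3′ UTR, of the neural list and of the streak and mesoderm list. The median of all genes with a 3′ UTR was -0.034 at 5 CPM or more, against 0.064 at any level. The neural list gave -0.041 under the 1 CPM filter and -0.076 with members of at least 0.5 CPM in Cas9 libraries (chosen after seeing the data), against 0.143. The streak and mesoderm list gave 0.480 under the 1 CPM filter and -0.327 to 0.109 with 1 library left out, the highest without Cas9 control replicate 1, against -0.230. The cause was not tested. The interferon list fell to a median of 0.36 under that filter and the Pramel list to 2.25. Depth limits genes of a few counts, whose ratios carry the wide intervals given.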

Other observations

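Among classes of genes outside the lists, 97 of 223 unprocessed pseudogenes were higher with Tnrc6a and 47 lower (median 0.28), while of 488 lincRNA genes 105 were higher and 131 lower (median -0.05). Of 100 annotated microRNA genes 14 were higher and 29 lower (median -0.17), values that count reads of total RNA over hairpins and not mature microRNAs. Of 120 snoRNA genes 3 were higher and 12 lower. Of the 15 mitochondrial genes of at least 5 CPM 13 fell and 0 rose (median -0.62). Medians of the other chromosomes with over 100 such genes ran from -0.20 for the X chromosome to -0.04 for chromosome 9.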
